A study of Homo sapiens with 9 samples.

Results

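The integrated stress response is a shared reply of cells to amino acid shortage, endoplasmic reticulum stress, heme deficiency and viral RNA, each sensed by its own kinase. The kinases phosphorylate the translation factor eIF2-alpha, which lowers protein synthesis in general but favours translation of the mRNA of ATF4, a transcription factor of the bZIP family that then switches on genes of amino acid supply, redox control and cell death. The level of ATF4 protein therefore depends on translation as well as on its mRNA, and RNA sequencing sees only the mRNA of ATF4 together with the mRNA of its targets. Described here are 8 genes of this pathway, chosen by name: ATF4 itself, the bZIP factors ATF5 and DDIT3 (the protein CHOP), the feedback genes TRIB3 and PPP1R15A (GADD34), and the effector genes ASNS, CHAC1 and SESN2. All 8 were among the 58735 genes of the deposited table.

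Expression was measured by RNA sequencing in GBM43, a glioblastoma cell line grown in serum-containing DMEM with Glutamax and seeded into invasion devices of hyaluronic acid gel. The MK801 group had 3 libraries of cells from devices given 50 µM MK801, which blocks the channel of NMDA-type glutamate receptors, with core and invaded cells extracted together. The invasive group had 3 libraries of cells cut out from the gel around the core of control devices, and the core group had 3 libraries of the cells that had stayed in the core of control devices. The labels name DMSO in one field and culture medium in another as what control devices received. All groups are 1 cell line, and the labels do not say that the libraries of a group are separate cultures, so the spread between them may be partly technical. The column names of core and invasive libraries with the same replicate number share a stem, which may mark 1 device, but the labels do not say so. The MK801 libraries have no counterpart of the same makeup among the controls, since control fractions were kept apart.

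The promoter stretches below are shown because ATF4 acts on its targets through DNA, with C/EBP proteins as partners. RefSeq promoter windows (250 bases before to 50 after a gene start, build GRCh38.p14) were found for 8 of 8 genes, in 15 windows. The composite element of C/EBP and ATF factors was searched as TGATGNAA on both strands (in CHAC1 it reads on the opposite strand), and it was in 2 of the 15 windows, 1 each of CHAC1 and ASNS, beside 3.62% of all 35116 windows. The cAMP response element TGACGTCA was in 1 of the 15, of PPP1R15A, beside 1.85% of all windows, and TTGCAA, a motif of C/EBP factors, in 2 of the 15, of PPP1R15A and SESN2, beside 5.51%. The searched motifs share bases in none of the stretches shown, each of which is printed 5′ to 3′ along the gene's own strand with the matches in capitals. A match is a run of letters, not evidence of binding.
CHAC1, chr15:40953251-40953280, plus strand: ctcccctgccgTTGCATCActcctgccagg
ASNS, chr7:97872458-97872487, minus strand: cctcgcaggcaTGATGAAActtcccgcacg
PPP1R15A, chr19:48872171-48872390, plus strand: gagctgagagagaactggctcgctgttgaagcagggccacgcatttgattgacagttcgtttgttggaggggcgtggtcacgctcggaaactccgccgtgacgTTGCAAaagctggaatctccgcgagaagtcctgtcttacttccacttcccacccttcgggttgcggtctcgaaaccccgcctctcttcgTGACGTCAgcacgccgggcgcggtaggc
SESN2, chr1:28259268-28259517, plus strand: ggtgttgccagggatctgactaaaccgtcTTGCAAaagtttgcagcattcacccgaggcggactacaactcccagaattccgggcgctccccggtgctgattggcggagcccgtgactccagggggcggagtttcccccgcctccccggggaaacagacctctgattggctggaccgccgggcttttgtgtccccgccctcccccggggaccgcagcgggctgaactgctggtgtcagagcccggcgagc

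The libraries held 16477165 to 54409666 fragments in the MK801 group, 16681604 to 22832584 in the invasive group and 15584610 to 23652330 in the core group. They differed in composition. At the depth of the shallowest library, 15161 to 21517 genes were detected in MK801, 15975 to 19140 in invasive and 20322 to 21414 in core libraries, and the GC content of the transcripts, weighted by fragments, was 49.7 to 53.6% in MK801, 51.9 to 53.7% in invasive and 49.0 to 50.3% in core libraries. MK801 replicate 1 had the fewest genes and the highest GC content of its group, and MK801 replicate 3 the most genes and the lowest GC content. Of 9 glioma and neural markers, 4 reached 1 FPKM in some library; VIM averaged 1332 FPKM in MK801, 1430.4 in invasive and 1219.8 in core libraries and SOX2 2.70, 1.66 and 2.59 FPKM, while OLIG2 had 0 in every library and GFAP stayed at means of 0.0296, 0.108 and 0.0287 FPKM in the same order. Of 4 immune markers none reached 1 FPKM in any library. Summed over 6 fibroblast and pericyte markers the level was 42.5 to 127 FPKM in MK801, 222 to 410 FPKM in invasive and 38.3 to 74.95 FPKM in core libraries, mostly COL1A1 and PDGFRB. The fibroblast genes DCN and LUM averaged at most 0.552 and 1.39 FPKM in any group. COL1A1, PDGFRB, LUM and COL3A1 (means of 2.72 FPKM in invasive and 0.413 in core) were higher in all invasive than in all core libraries. RGS5 was lower (0.0989 and 0.505), and DCN overlapped. Summed over 3 endothelial markers the level was 0.791 to 1.10 FPKM in MK801, 1.63 to 4.597 in invasive and 0.768 to 1.22 in core libraries, with CDH5 at 0.0354 to 0.558 in MK801, 0.758 to 3.15 in invasive and 0.00591 to 0.0729 in core libraries. The part of these differences in the results below was not tested. Values with the GC trend removed or adjusted for genes detected are given beside some results. Core and invasive libraries overlapped neither in genes detected nor in GC content. For these 2 groups the adjusted values therefore cannot tell library composition and fraction apart.

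Levels are in FPKM as deposited, fragments scaled to gene length and to a total for each library, which allows genes to be set side by side. The authors' total was not the sum of the fragments counted: it was 0.769 to 1.19 times that sum in MK801, 0.788 to 1.06 times in invasive and 1.10 to 1.23 times in core libraries, so levels and ratios between groups depend on it, while ratios of genes within a library do not. Scaling instead to the sum of counted fragments, an alternative chosen after seeing the data, moved the median of all genes to -0.25 for invasive minus core and -0.21 for MK801 minus core, against -0.02 and 0.005 as deposited. Values of a group are listed in the order of replicates 1, 2 and 3. Differences are on the scale of log2(FPKM + 1), which understates those of weakly expressed genes, with p from limma on all 9 libraries, adjusted over the 11845 genes that reached 1 FPKM in at least 3 libraries. Of the 8 stress response genes, 7 were tested, and ASNS was not. Scaled to the sum of counted fragments, limma again called 0 of the 7 in each comparison, ATF4 and PPP1R15A turned negative for MK801 minus core, PPP1R15A turned negative for invasive minus core, and the other signs held. TRIB3 was then at 0.82 for MK801 minus core and 0.54 for invasive minus core, ATF5 at 0.42 and 0.55, and DDIT3 at -0.57 and -1.51. SESN2 was at 0.61 and 0.09 and CHAC1 at 0.22 and 0.26, in the same order. In bulk RNA, fewer cells that express a gene and less of its RNA per cell cannot be told apart.

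ATF4 mRNA was abundant, with levels that overlapped between all groups. ATF4 (ENSG00000128272, GRCh38 chromosome 22, 39519695 to 39522685, plus strand) had 214, 211 and 206 FPKM in MK801 libraries, 212, 189 and 163 FPKM in invasive libraries and 173, 232 and 185 FPKM in core libraries. The MK801 libraries lay closest together, with a highest value 1.04 times the lowest. The means were 210.2 ± 4.29 FPKM in MK801, 188 ± 24.9 in invasive and 197 ± 31.3 in core libraries (SD, n = 3 each). The log2 difference was 0.11 (SE 0.24) for MK801 minus core, 0.17 (SE 0.24) for MK801 minus invasive and -0.06 (SE 0.24) for invasive minus core, with limma adjusted p of 0.756, 0.964 and 0.852.

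ATF5, a bZIP factor whose mRNA is translated under stress much as that of ATF4 is, had higher values in invasive than in core libraries, without passing the adjusted test. ATF5 (ENSG00000169136, chromosome 19, 49928702 to 49933935, plus strand) had 28.9, 21.0 and 13.5 FPKM in MK801 libraries, 20.6, 29.8 and 18.1 FPKM in invasive libraries and 13.2, 14.1 and 9.43 FPKM in core libraries. All invasive libraries lay above all core libraries, while the MK801 libraries spanned from core levels to the top of the invasive ones. Mean levels were 21.1 ± 7.69 FPKM in MK801, 22.8 ± 6.20 in invasive and 12.2 ± 2.45 in core libraries. The log2 difference was 0.84 (SE 0.31, limma adjusted p = 0.109) for invasive minus core and 0.70 (SE 0.31, limma adjusted p = 0.235) for MK801 minus core. Genes on the opposite strand, mainly NUP62, cover 21.2% of the exon bases of ATF5, and it is not known whether the counting used strand. The nuclear pore gene NUP62 itself was at 14.7 to 30.6 FPKM in MK801, 18.5 to 27.4 in invasive and 12.5 to 16.7 in core libraries. Its invasive libraries were thus all above its core libraries, as for ATF5. Whether fragments of NUP62 add to the ATF5 difference was not tested.

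DDIT3, which encodes the death-promoting factor CHOP, had its lowest values in invasive libraries, without passing the adjusted test. DDIT3 (ENSG00000175197, chromosome 12, 57516588 to 57521737, minus strand) had 26.4, 21.1 and 31.7 FPKM in MK801 libraries, 17.1, 6.93 and 18.4 FPKM in invasive libraries and 28.9, 29.2 and 38.3 FPKM in core libraries. The invasive libraries were below every library of the other groups, and the MK801 and core libraries overlapped. Means were 26.4 ± 5.29 FPKM in MK801, 14.1 ± 6.28 in invasive and 32.1 ± 5.30 in core libraries, so the invasive mean was 0.440 times the core mean. The log2 difference was -1.22 (SE 0.34, limma adjusted p = 0.103) for invasive minus core, 0.94 (SE 0.34, limma adjusted p = 0.465) for MK801 minus invasive and -0.28 (SE 0.34, limma adjusted p = 0.557) for MK801 minus core. Without invasive replicate 2, which was lowest, the difference of invasive minus core was -0.81 and that of MK801 minus invasive 0.53. Genes on the opposite strand, mainly MARS, a tRNA synthetase gene, cover 31.6% of the exon bases of DDIT3. MARS was at 11.1 to 20.4 FPKM in MK801, 19.1 to 23.7 in invasive and 8.27 to 10.7 in core libraries, an order of invasive and core libraries opposite to that of DDIT3.

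TRIB3, a pseudokinase that binds ATF4 and dampens its activity, had higher values in all MK801 and all invasive libraries than in core libraries, without passing the adjusted test. TRIB3 (ENSG00000101255, chromosome 20, 362835 to 397559, plus strand) had 132, 83.4 and 43.9 FPKM in MK801 libraries, 63.6, 80.8 and 52.8 FPKM in invasive libraries and 36.7, 36.7 and 34.2 FPKM in core libraries. The core libraries lay close together below all others, and MK801 and invasive libraries overlapped. The highest MK801 library was 3.00 times the lowest, against 1.53 times in the invasive and 1.08 times in the core group. Means were 86.4 ± 44.0 FPKM in MK801, 65.7 ± 14.1 in invasive and 35.9 ± 1.47 in core libraries, ratios of 2.41 for MK801 to core and 1.83 for invasive to core. The log2 difference was 1.11 (SE 0.36, limma adjusted p = 0.235) for MK801 minus core and 0.84 (SE 0.36, limma adjusted p = 0.123) for invasive minus core. For MK801 minus invasive it was 0.27 (SE 0.36, limma adjusted p = 0.959), and -0.09 without MK801 replicate 1.

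PPP1R15A, the subunit that directs protein phosphatase 1 to eIF2-alpha and so ends the stress response, was the most abundant of the 8 in each group. PPP1R15A (ENSG00000087074, chromosome 19, 48872392 to 48876057, plus strand) had 276, 394 and 274 FPKM in MK801 libraries, 361, 271 and 284 FPKM in invasive libraries and 269, 289 and 245 FPKM in core libraries. All groups overlapped, and no comparison had a log2 difference above 0.22 (limma adjusted p = 0.559 for MK801 minus core, 0.594 for invasive minus core and 0.996 for MK801 minus invasive).

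SESN2, a leucine sensor that restrains the growth kinase complex mTORC1, had its highest values in MK801 libraries and its lowest in core libraries, without passing the adjusted test. SESN2 (ENSG00000130766, chromosome 1, 28259527 to 28282491, plus strand) had 49.9, 45.1 and 26.3 FPKM in MK801 libraries, 25.8, 30.8 and 24.9 FPKM in invasive libraries and 18.9, 23.7 and 19.4 FPKM in core libraries. All MK801 and all invasive libraries were above all core libraries, and MK801 replicate 3 lay within the invasive range while the other MK801 libraries lay above it. Means were 40.4 ± 12.4 FPKM in MK801, 27.2 ± 3.16 in invasive and 20.7 ± 2.64 in core libraries. The log2 difference was 0.89 (SE 0.26, limma adjusted p = 0.235) for MK801 minus core, 0.51 (SE 0.26, limma adjusted p = 0.705) for MK801 minus invasive and 0.38 (SE 0.26, limma adjusted p = 0.276) for invasive minus core.

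CHAC1, an enzyme that breaks down glutathione, was weakly expressed. CHAC1 (ENSG00000128965, chromosome 15, 40952962 to 40956519, plus strand) had 8.89, 3.56 and 2.63 FPKM in MK801 libraries, 3.48, 7.23 and 3.82 FPKM in invasive libraries and 3.34, 3.37 and 2.31 FPKM in core libraries, from 107 to 352 fragments a library. The invasive libraries were all above the core libraries by a narrow margin, and MK801 libraries overlapped both. MK801 replicate 1 and invasive replicate 2 stood well above the other libraries of their groups. The log2 difference was 0.46 (SE 0.37, limma adjusted p = 0.387) for MK801 minus core and 0.50 (SE 0.37, limma adjusted p = 0.303) for invasive minus core, and -0.04 (SE 0.37, limma adjusted p = 0.996) for MK801 minus invasive. Without MK801 replicate 1 the difference of MK801 minus core was 0.0347, and without invasive replicate 2 that of invasive minus core was 0.23.

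ASNS, the enzyme that makes asparagine and a classical target of ATF4, was counted at very low levels. ASNS (ENSG00000070669, chromosome 7, 97852118 to 97872542, minus strand) had 0.222, 0.436 and 0.404 FPKM in MK801 libraries, 0.134, 0.387 and 0.405 FPKM in invasive libraries and 0.557, 0.288 and 1.02 FPKM in core libraries. These values rest on 10 to 117 fragments a library, with an exact 95% Poisson interval of 0.0643 to 0.247 FPKM in the lowest library and 0.828 to 1.23 FPKM in the highest, for counting error alone. Another gene on the same strand, AC079781.5 (ENSG00000284707), shares 44.6% of the exon bases of ASNS, and how fragments falling on both were treated is not given in the sources used here. AC079781.5 was itself at 0.197 to 0.899 FPKM in MK801, 0.292 to 0.443 in invasive and 0.469 to 0.785 in core libraries. The level of ASNS is therefore uncertain.

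**Figure D1:**
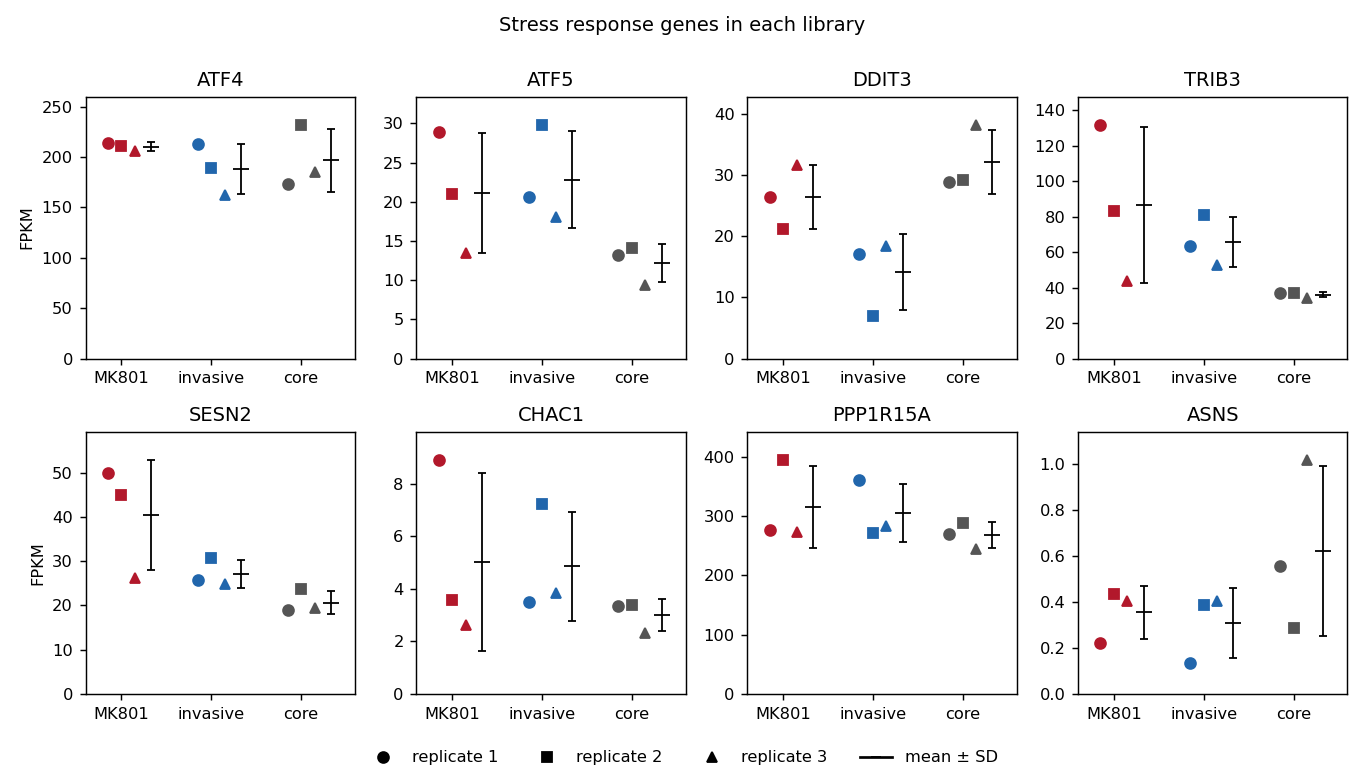
FPKM (y axes, linear from 0, a scale for each gene) of the 8 stress response genes in each library of the MK801, invasive and core groups, with symbols for replicates and bars for the mean ± SD of 3 libraries. The core libraries of TRIB3 lie together at 34.2 to 36.7 FPKM below all others, the invasive libraries of DDIT3 lie below all others, and the groups of ATF4 overlap.

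The groups of MK801 and core libraries were compared to ask how cells of treated devices compare with the non-invading cells of control devices. Of 7 genes tested, 6 had a positive and 1 a negative difference (median 0.46 on the log2 scale), beside 0.005 over all genes tested. Among genes that reached 5 FPKM in at least 3 libraries, the median was 0.46 for 6 of the 7. It was 0.23 for all such genes, 60.6% of which were higher. Limma called 0 of the 7, as it called 0.0% of all genes, and 3 (TRIB3, SESN2 and ATF5) had an unadjusted p under 0.05, beside 21.2% of all genes. In 2 genes, TRIB3 and SESN2, all MK801 libraries were above all core libraries, beside 9.89% of all genes, and in none were they all below, beside 8.82% of all genes. Without MK801 replicate 3, whose GC content was the nearest of its group to that of core libraries, limma called TRIB3 (log2 1.52, adjusted p = 0.00792), SESN2 (1.17, adjusted p = 0.00792) and ATF5 (0.97, adjusted p = 0.0158), all higher, beside 50.2% of all genes called. The share of 3 in 7 is near that background.

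The comparison of MK801 with invasive libraries asked how treated cells compare with the control cells found in the gel. By sign 5 of 7 were higher and 2 lower in MK801 (median log2 0.17), beside -0.002 over all genes. Among genes that reached 5 FPKM in at least 3 libraries, the median was 0.22 for 6 of the 7 and -0.01 for all. Limma called 0, with 1 (DDIT3) at an unadjusted p under 0.05 beside 8.26% of all genes. DDIT3 was also the gene in which all MK801 libraries were above all invasive libraries, beside 5.22% of all genes, and in none of the 7 were they all below, beside 5.63%.

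The comparison of invasive with core libraries asked what distinguishes cells that had left the core from those that had stayed. By sign 5 of 7 were higher and 2 lower in invasive libraries, with a median of 0.38, beside -0.02 over all genes. Among genes that reached 5 FPKM in at least 3 libraries, the median was 0.28 for 6 of the 7. It was 0.24 for all such genes, 59.0% of which were higher, so the 6 lay near that background. Limma called 0, with 3 (DDIT3, ATF5 and TRIB3) at an unadjusted p under 0.05, beside 37.7% of all genes. All invasive libraries were above all core libraries in 4 genes (TRIB3, ATF5, CHAC1 and SESN2), beside 32.0% of all genes, and below in 1 (DDIT3), beside 32.8%. This holds for FPKM as deposited and depends on the authors' total. Scaled to the sum of counted fragments, the difference was only 0.09 for SESN2 and 0.26 for CHAC1, and overlap was not examined on that scale. Fitted on the control libraries alone, which leaves out the wide spread of the MK801 group, limma called TRIB3 (adjusted p = 0.00811) and ATF5 (adjusted p = 0.014) higher and DDIT3 lower (adjusted p = 0.0129), 3 of 7 beside 52.2% of all genes. Without MK801 replicate 1 or without MK801 replicate 3 the fit of the other libraries called the same 3 genes, beside 39.5% and 41.3% of all genes. With the replicate number as a block, limma called DDIT3 (adjusted p = 0.0424) and ATF5 (adjusted p = 0.0435) in all 9 libraries, beside 21.3% of all genes, and TRIB3, ATF5, SESN2 and DDIT3 in the control libraries alone (adjusted p from 0.00419 to 0.0301), beside 60.2%. The 3 comparisons share libraries, so their values are not independent.

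**Figure D2:**
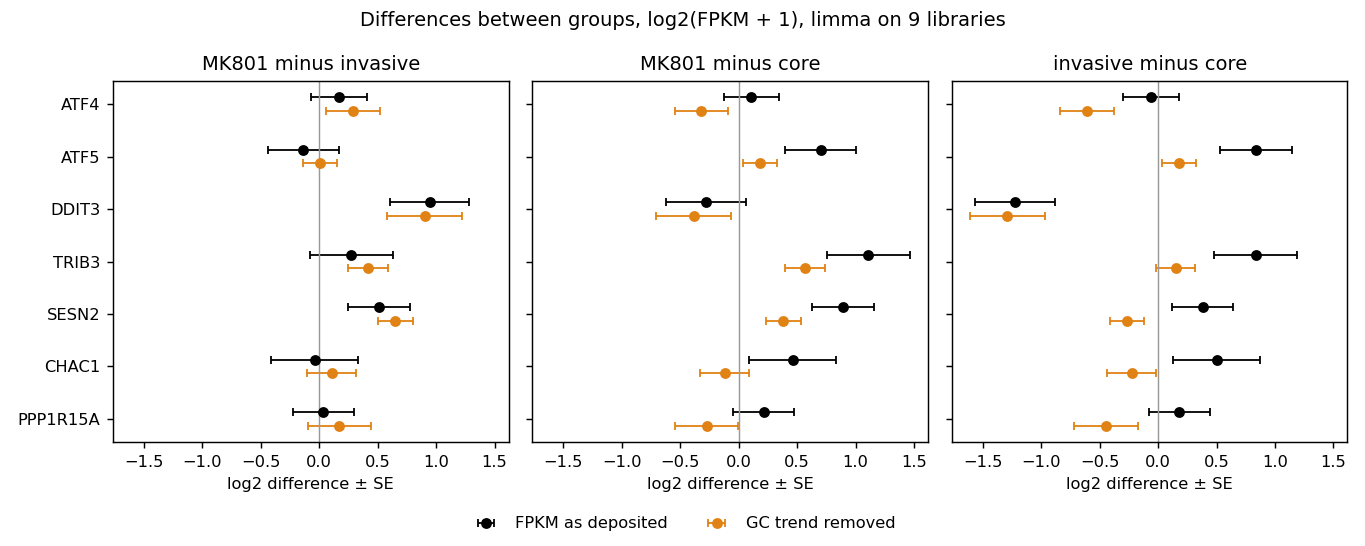
Log2 differences with standard errors (x axes, on the scale of log2(FPKM + 1)) of the 7 tested genes in the 3 comparisons, from FPKM as deposited (black) and with each library's trend over gene GC content removed (orange). With the trend removed, TRIB3 and ATF5 lie near 0 for invasive minus core, at 0.15 and 0.18, and DDIT3 stays at -1.29.

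The levels of several of these genes moved with the GC content of the libraries. Of the 7 tested genes, 6 had a transcript GC content above the upper quartile of all tested genes (56.3%), from 56.7% in ATF4 to 62.6% in CHAC1, and DDIT3, at 49.7%, lay near the median of 48.4%. Within the MK801 group, TRIB3, SESN2, ATF5 and CHAC1 were highest in replicate 1 and lowest in replicate 3, the order of the libraries' GC content. With the GC trend of each library removed, the difference of invasive minus core was 0.15 for TRIB3 (SE 0.17), 0.18 for ATF5 (SE 0.15), -0.27 for SESN2, -0.23 for CHAC1 and -0.61 for ATF4, and limma called none of these in all 9 libraries (adjusted p from 0.178 to 0.595). The difference of DDIT3 was -1.29 (SE 0.32, limma adjusted p = 0.102), against -1.22 before. In the control libraries alone with this correction, limma called DDIT3 (adjusted p = 0.0303) and ATF4 (-0.61, adjusted p = 0.0417), both lower in invasive libraries, 2 of 7 beside 18.2% of all genes. The number of genes detected also differed between the groups: with it as a covariate the difference of invasive minus core was 0.17 for TRIB3, 0.30 for ATF5, 0.01 for SESN2 and -0.87 for DDIT3, that of MK801 minus core 0.62 for TRIB3 and 0.62 for SESN2, and limma called none.

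For MK801 minus core the difference with the GC trend removed was 0.57 for TRIB3 (limma adjusted p = 0.356) and 0.38 for SESN2 (adjusted p = 0.392), against 1.11 and 0.89 before, and ATF4, CHAC1 and PPP1R15A turned in sign (-0.32, -0.12 and -0.28). For MK801 minus invasive all 7 were above 0 with this correction, ATF5 only at 0.0028, beside 49.1% of all genes, against 5 of 7 before it. The largest were DDIT3 at 0.90 (limma adjusted p = 0.219), SESN2 at 0.65 (SE 0.15, adjusted p = 0.088) and TRIB3 at 0.42 (SE 0.17, adjusted p = 0.276), and none was called.

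**Figure D3:**
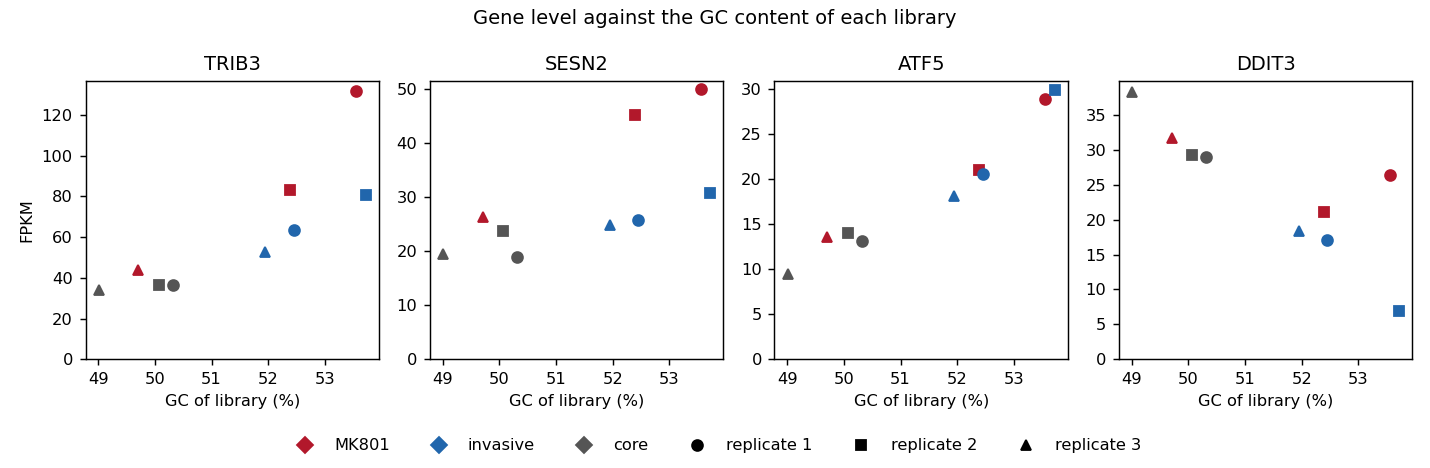
FPKM of TRIB3, SESN2, ATF5 and DDIT3 (y axes, from 0) against the fragment-weighted GC content of each library in percent (x axes), with colours for the MK801, invasive and core groups and symbols for replicates. TRIB3 and ATF5 are higher in libraries of higher GC content. In TRIB3, SESN2 and DDIT3, MK801 replicates 1 and 2 lie above the invasive libraries of similar GC content.

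Ratios of levels within a library set these genes side by side without the authors' total. The GC trend of the libraries does not cancel in them, since transcript GC content was 60.9% in TRIB3, 56.7% in ATF4 and 49.7% in DDIT3. The ratio of TRIB3 to DDIT3 in FPKM was 4.98, 3.95 and 1.39 in MK801 libraries, 3.72, 11.7 and 2.87 in invasive libraries and 1.27, 1.26 and 0.893 in core libraries. All MK801 and all invasive libraries were above all core libraries, with MK801 replicate 3 just above. The ratio of TRIB3 to ATF4 was 0.615, 0.396 and 0.214 in MK801, 0.299, 0.427 and 0.325 in invasive and 0.213, 0.158 and 0.185 in core libraries, so that MK801 replicate 3 was again next to the highest core library. The ratio of DDIT3 to ATF4 was 0.123, 0.1002 and 0.154 in MK801, 0.0804, 0.0367 and 0.113 in invasive and 0.167, 0.126 and 0.207 in core libraries, and here the invasive and core libraries did not overlap. These ratios were formed after the levels were seen, were not corrected for the GC trend and were not tested.

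The kinases that phosphorylate eIF2-alpha were measured as background to these targets. EIF2AK1, the heme-regulated kinase HRI, was the most abundant at 44.5 ± 1.76 FPKM in MK801, 39.3 ± 4.99 in invasive and 39.0 ± 0.934 in core libraries. EIF2AK2, the kinase PKR that senses double-stranded RNA, was at 3.33 ± 2.95 FPKM in MK801, 3.19 ± 1.501 in invasive and 6.32 ± 2.09 in core libraries. EIF2AK3, the endoplasmic reticulum kinase PERK, was at 1.44 ± 0.694, 1.19 ± 0.444 and 1.85 ± 0.370 FPKM, and EIF2AK4, the amino acid sensor GCN2, at 4.22 ± 1.96, 4.61 ± 1.34 and 6.15 ± 0.357 FPKM, in the same order of groups. All 4 were tested and limma called 0 in each comparison. In the invasive and core libraries alone it called 1, lower, beside 52.2% of all genes. The median log2 difference of the 4 was -0.39 for MK801 minus core, -0.003 for MK801 minus invasive and -0.38 for invasive minus core.

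Of 12 genes of eIF2, its exchange factor eIF2B and the phosphatase that reverses the mark, limma called 0 in each comparison, but 3 higher and 6 lower in the invasive and core libraries alone, beside the 52.2% of all genes. Those that differed most were PPP1CB and PPP1CA, catalytic subunits of protein phosphatase 1, and EIF2S2, the beta subunit of eIF2. PPP1CA was at 124 ± 76.9 FPKM in MK801, 132 ± 33.3 in invasive and 55.7 ± 9.42 in core libraries, and PPP1CB at 13.7 ± 11.03 in MK801, 10.8 ± 3.01 in invasive and 26.2 ± 2.38 in core libraries, an opposite order. EIF2S2 was at 13.8 ± 11.04 FPKM in MK801, 13.5 ± 1.06 in invasive and 27.4 ± 5.34 in core libraries. PPP1CA has a transcript GC content of 61.4% and PPP1CB of 35.5%.

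Among 10 tested C/EBP and ATF factors of 11 listed, limma called 0 in each comparison. In the invasive and core libraries alone it called 3 higher and 3 lower, beside 52.2% of all genes. CEBPG, a partner of ATF4 on DNA, was at 11.1 ± 8.36 FPKM in MK801, 7.49 ± 1.23 in invasive and 17.2 ± 2.11 in core libraries (log2 -1.11, limma adjusted p = 0.111 for invasive minus core). ATF6B, a membrane-bound relative of the stress sensor ATF6, was at 10.4 ± 4.88 FPKM in MK801, 20.1 ± 2.15 in invasive and 8.88 ± 2.35 in core libraries (limma adjusted p = 0.423 for MK801 minus invasive). ATF3, a stress-induced repressor, was at 25.5, 53.4 and 49.8 FPKM in MK801, 84.4, 42.2 and 58.9 in invasive and 47.4, 47.2 and 46.6 in core libraries, with groups that overlapped. ATF2, a factor activated by stress kinases, was at 3.76 ± 3.16, 3.52 ± 1.18 and 6.59 ± 1.14 FPKM in MK801, invasive and core libraries.

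Of 12 further stress targets of ATF4, 11 were tested and limma called 0 in each comparison. In the invasive and core libraries alone it called 3 higher and 1 lower, beside 52.2% of all genes. The median log2 difference of the 11 was 0.52 for MK801 minus core, -0.01 for MK801 minus invasive and 0.08 for invasive minus core, beside 0.005, -0.002 and -0.02 over all genes. Over all genes that reached 5 FPKM in at least 3 libraries it was 0.23, -0.01 and 0.24 in the same order. With the GC trend removed the medians of the 11 were 0.34, 0.09 and -0.03. By sign 6 were higher and 5 lower for MK801 minus core, and 8 and 3 with the GC trend removed. HERPUD1, a membrane protein of endoplasmic reticulum protein disposal, had 30.4, 31.9 and 32.8 FPKM in MK801, 23.1, 19.7 and 21.2 FPKM in invasive and 18.5, 20.9 and 20.4 FPKM in core libraries. Its MK801 libraries were above all 6 control libraries and lay close together. Of all genes, 9.89% had all MK801 above all core libraries and 5.22% all MK801 above all invasive libraries. The log2 difference of HERPUD1 was 0.55 (SE 0.19, limma adjusted p = 0.440) from invasive and 0.64 (limma adjusted p = 0.235) from core, and 0.49 and 0.64 with the GC trend removed. TNFRSF10B (73.4 to 91.8 FPKM in MK801) and CTH, given below, were likewise above all control libraries. VEGFA, at 44.5 to 55.7 FPKM in MK801, 56.2 to 80.2 in invasive and 63.2 to 99.2 in core libraries, was below them all. BBC3, which encodes the death-promoting protein PUMA, was at 8.09 ± 2.38 FPKM in MK801, 6.13 ± 2.00 in invasive and 3.12 ± 0.585 in core libraries (log2 1.11, limma adjusted p = 0.235 for MK801 minus core, 0.47 with the GC trend removed). GDF15, a secreted stress cytokine, had 2.74, 2.20 and 0.486 FPKM in MK801, 2.29, 2.58 and 1.80 FPKM in invasive and 0.189, 0.167 and 0.383 FPKM in core libraries. Its log2 difference of 1.37 for invasive minus core had a limma adjusted p of 0.0917, and was 0.63 with the GC trend removed (adjusted p = 0.165). KLHL24 was at 6.15 ± 5.06, 2.48 ± 0.551 and 6.59 ± 2.58 FPKM in MK801, invasive and core libraries.

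Of 18 genes of amino acid supply that ATF4 controls, 15 were tested, and 12 of these were higher and 3 lower by sign in MK801 than in core libraries (median log2 0.53) and in invasive than in core libraries (median 0.63). The medians were 0.36 and 0.32 with the GC trend removed, with the same counts by sign. As deposited, the medians of all genes were 0.005 and -0.02. Those of all genes that reached 5 FPKM in at least 3 libraries were 0.23 and 0.24. For MK801 minus invasive 4 were higher and 11 lower (median -0.11), and 6 and 9 with the GC trend removed (median -0.06). Limma called 0 in each comparison of all 9 libraries. In the invasive and core libraries alone it called 11 higher and 2 lower, beside the 52.2% of all genes called there, and with the GC trend removed as well 5 higher and 0 lower, beside the 18.2%. PHGDH, the enzyme that opens serine synthesis, was at 31.6 ± 24.3 FPKM in MK801, 36.3 ± 10.7 in invasive and 13.4 ± 0.772 in core libraries, and SHMT2, the mitochondrial enzyme that turns serine into glycine, at 33.6 ± 25.3, 37.4 ± 10.1 and 14.6 ± 2.33 FPKM in the same order. PYCR1, an enzyme of proline synthesis, was at 39.3 ± 20.2 FPKM in MK801, 37.9 ± 11.2 in invasive and 16.2 ± 2.34 in core libraries, and SLC1A5, a glutamine carrier, at 85.1 ± 46.9, 85.8 ± 38.1 and 35.4 ± 3.58 FPKM. CTH, which makes cysteine, was at 5.45 ± 0.855 FPKM in MK801, 3.21 ± 1.16 in invasive and 3.37 ± 0.381 in core libraries (log2 0.64, limma adjusted p = 0.475 for MK801 minus invasive), and PSAT1, also of serine synthesis, at 7.06 ± 2.602, 12.0 ± 2.39 and 7.40 ± 1.38 FPKM (log2 -0.72, limma adjusted p = 0.488).

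Targets of the other arms of the unfolded protein response, run by ATF6 and XBP1, gave a mixed picture, and limma called 0 of 15 in each comparison. In the invasive and core libraries alone it called 5 higher and 3 lower, beside 52.2% of all genes. PDIA4, an endoplasmic reticulum disulfide isomerase, was at 30.1 ± 5.13 FPKM in MK801, 54.8 ± 4.94 in invasive and 26.0 ± 5.33 in core libraries (log2 -0.85, limma adjusted p = 0.299 for MK801 minus invasive). CALR, the chaperone calreticulin, was at 267 ± 87.8, 458 ± 52.4 and 223 ± 42.4 FPKM in the same order. SDF2L1, a cofactor of endoplasmic reticulum chaperones, was at 14.3 ± 10.8 FPKM in MK801, 10.9 ± 2.40 in invasive and 4.65 ± 1.90 in core libraries. HSP90B1, the chaperone GRP94, was at 32.1 ± 17.5, 50.0 ± 13.6 and 64.1 ± 6.17 FPKM, and DNAJB9, a cochaperone, at 7.72 ± 5.03, 4.13 ± 0.731 and 10.2 ± 1.19 FPKM in MK801, invasive and core libraries. PDIA4 and CALR thus had their highest means in invasive libraries, where DNAJB9 and DDIT3 had their lowest. By sign 9 of the 15 were higher and 6 lower in invasive than in core libraries, and 12 and 3 with the GC trend removed.

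**Figure D4:**
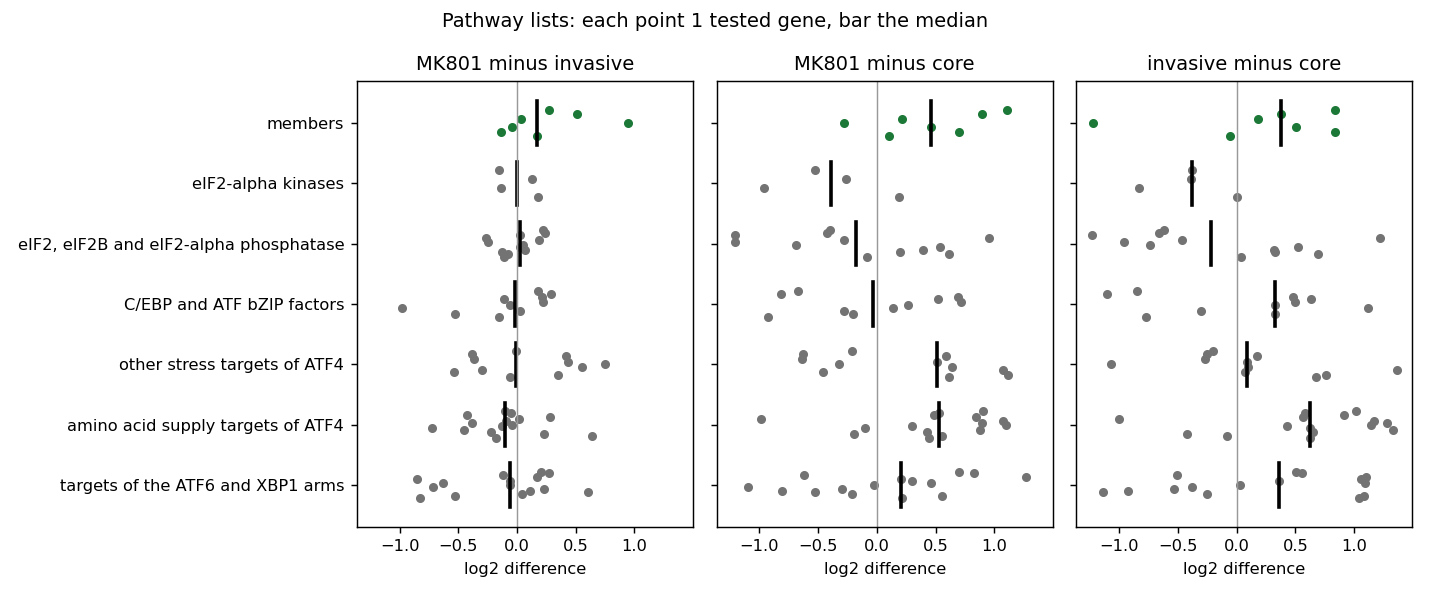
Log2 differences (x axes, on the scale of log2(FPKM + 1)) of each tested gene of the stress response genes and of 6 pathway lists, a point for a gene and a black bar for the median, in the 3 comparisons. The amino acid supply genes lie mostly above 0 in MK801 minus core and in invasive minus core, with medians of 0.53 and 0.63.

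The genes whose pattern was most like that of the stress response genes were picked by the mean of their Pearson correlations with the 7 tested genes over the 9 libraries, among protein-coding genes of at least 5 FPKM on average. Among the 6 highest were TPD52L2, POLR3D, STK24, TBCC and GNG5, with mean correlations of 0.589 to 0.598, beside a median of 0.009 over all genes tested. They were picked by this value, so their distance from that median was set by the choice. The 7 genes did not share a single pattern: ATF5 correlated at 0.92 with TRIB3 and at -0.75 with DDIT3. TPD52L2 had 177, 153 and 105 FPKM in MK801, 121, 119.8 and 104 FPKM in invasive and 91.3, 108 and 78.4 FPKM in core libraries, an order much like that of SESN2, with which it correlated at 0.959, and unlike that of DDIT3 (-0.303). These correlations describe libraries that share groups and GC content, and carry no test.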

How the data were processed

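RNA was measured by sequencing of poly(A)-selected RNA in 9 libraries, 3 each of the MK801, invasive and core groups. Alignment with HISAT2 2.0.5 to GRCh38 and counting with featureCounts 1.5.0-p3 are named in the submitters' processing notes; strand use and the treatment of overlapping genes are not given in the sources used here. The authors deposited FPKM per gene with gene length, scaled to totals other than the sum of counted fragments by a step not given in the sources used here, and all 58735 gene identifiers and coordinates matched GENCODE 29. Fragments recovered from FPKM and length came out whole (within 0.01) for 100% of values; their totals, 15584610 to 54409666 fragments, are the depth. Recovered counts entered limma-voom as an alternative, with 0 genes called in each comparison.

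Groups were compared with limma 3.58.1 in R 4.3.3 (moderated test with a mean-variance trend, two-sided) on log2(FPKM + 1) of genes of at least 1 FPKM in at least 3 libraries, 1 fit of all 9 libraries, with Benjamini-Hochberg adjustment over 11845 genes and a threshold of 0.05. An exact permutation test of 3 against 3 cannot go below p = 0.1 and was not used. The GC trend was a loess curve (span 0.3) of each library's values over gene GC content. The fit was run on simulated data with known changes, drawn with a smaller spread between libraries than the real data had. That run therefore cannot say how many real changes the fit would miss here.

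The 8 genes and the pathway lists were chosen with earlier results of these data known. All 8 genes are named; from each list the genes past the threshold are named, or, where fewer than 2 passed, the 2 of largest absolute difference in each comparison; genes of like pattern are the 6 of highest mean correlation, of which 1 is not reported here. TNFRSF10B and VEGFA are named in addition, for their separation from both control groups. Alternatives were another pseudocount, other filters, median-of-ratios scaling, a replicate block, the compared groups alone, voom, GC and detected-gene corrections, and leaving out each library. Since the labels name no separate cultures, a p-value speaks for the variation among these libraries alone.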

Additional observations from a re-analysis of the deposited data

How the results depend on the processing

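With all 9 libraries limma called 0 of the 7 tested genes in each comparison, and pseudocount, filter, scaling and voom alternatives left that count at 0. Median-of-ratios scaling hardly moved the deposited values (DDIT3 at -1.2237 against -1.2248 for invasive minus core), so its count adds little. For invasive minus core the count was 3 with the compared groups alone, 4 with these and the replicate block, 2 with these and the GC trend removed, and 0 to 3 when 1 library was left out (3 without MK801 replicate 1 or 3). For MK801 minus core it was 0 to 3 when 1 library was left out (3 without MK801 replicate 3), and for MK801 minus invasive 0 under all alternatives. The cause of these shifts was not tested. Calls over all genes, 0 in each main comparison, were for invasive minus core 6179 with the groups alone, 7134 with these and the replicate block, 41 with the GC trend removed (42 with the block, 2156 with the groups alone), 4 with the detected-gene covariate, and 4675, 1 and 4888 without MK801 replicates 1, 2 and 3. They were 113 (groups alone and block), 5941 (without MK801 replicate 3) and 1 (without invasive replicate 3) for MK801 minus core, and for MK801 minus invasive 77, 42 and 3 in the same GC fits, 323 with the covariate, 42 without MK801 replicate 1, and 1 each with the 5 FPKM filter, with the groups alone and block, and without core replicate 2.

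The labels do not say that replicate numbers pair the libraries, although column names of core and invasive libraries share a stem. The deviations of same-numbered libraries correlated at -0.15 to 0.61, and at -0.007, 0.24 and 0.44 between core and invasive, and not every library correlated best with its own number, so the fit without the block was kept as the main one. With the replicate block limma called 2 of 7 genes for invasive minus core (DDIT3 and ATF5), beside 2525 genes of all, and 0 in the other comparisons.

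With the GC trend removed, signs turned for invasive minus core in CHAC1 (-0.23), SESN2 (-0.27) and PPP1R15A (-0.45), for MK801 minus core in ATF4 (-0.32), CHAC1 (-0.12) and PPP1R15A (-0.28), and for MK801 minus invasive in ATF5 (0.0028) and CHAC1 (0.11), the same with the block or the groups alone. The covariate turned CHAC1 (-0.23 for invasive minus core, -0.076 for MK801 minus core, 0.15 for MK801 minus invasive) and ATF5 (0.0022 for MK801 minus invasive). When 1 library was left out, ATF4 spanned -0.15 to 0.0645 for invasive minus core, and for MK801 minus invasive ATF5 spanned -0.38 to 0.14, TRIB3 -0.0946 to 0.69, CHAC1 -0.47 to 0.26 and PPP1R15A -0.14 to 0.16. CHAC1 spanned 0.0347 to 0.76 for MK801 minus core and 0.23 to 0.67 for invasive minus core. Scaling to all counted fragments, an alternative chosen after seeing the data, turned ATF4 (-0.1865) and PPP1R15A (-0.0794) for MK801 minus core and PPP1R15A (-0.1234) for invasive minus core. In all, 42 single-gene values turned in sign, 20 passed the threshold and 397 kept sign and side. Depth limited ASNS and CHAC1 most, with 10 to 117 and 107 to 352 fragments a library.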
